A study of Mus musculus with 24 samples.

Results

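C3, C4b, C2, Cfb, C1qa, C1qb, C1qc and Serping1 are 8 genes of the complement system, chosen by symbol from the 16118 genes of the table. All 8 were found and all 8 passed the filter on low values that left 16005 genes for testing. They were measured by RNA sequencing of poly(A) RNA from inguinal white adipose tissue, a fat depot under the skin, in 24 mice with 1 library per mouse. The series asks how this depot changes in each sex when nursing is prolonged. There were 6 groups of 4 mice: males and females at postnatal day 21 (p21), males and females at day 28 (p28) after standard weaning (SW), in which pups left the mother at day 21, and males and females at day 28 after delayed weaning (DW), in which pups stayed with the mother. Strain and genotype are not given in the sources used here, and all groups are named here by sex, age and weaning only. The tissue is whole, so fewer cells of a type and less RNA per cell cannot be told apart in any result here.

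Complement is a cascade of plasma and tissue proteins that tags particles for uptake and calls in immune cells. In the classical pathway C1q, built from the chains encoded by C1qa, C1qb and C1qc, recognises its target, and C4 and C2 then form the enzyme that cleaves C3, the protein on which all pathways meet; factor B (Cfb) and factor D (Cfd, adipsin) do so in the alternative pathway. Serping1 encodes the C1 inhibitor, which blocks the proteases bound to C1q. Macrophages are a main source of C1q in tissues, while adipocytes and stromal cells of fat are known to make C3, factor B and factor D.

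Recovered reads in the listed genes ranged from 57600711 to 302145813 per library. Genes detected numbered 14054 in p21 male 53 and 15497 in SW male 84, against 15859 to 16066 in the other libraries. The 7 adipocyte markers on the list summed to between 13337 and 24404 normalised units in every library, with none at 0. Libraries also differed in how their values depended on the GC content of transcripts. Among 9935 genes, the Spearman correlation across genes between a gene's deviation from its median over libraries and its GC content was -0.65 in DW female 83, -0.48 in DW female 82, -0.64 in p21 male 37 and 0.56 in SW female 81. The 759 genes with at least 58% GC had a mean deviation of -0.93 (log2) in DW female 83 and -0.53 in DW female 82. The 8 genes are above the median gene in GC: 59.5% in C1qa, 57.5% in C1qc, 57.4% in C1qb, 55.3% in C4b and 52.3% to 53.3% in the other 4, against 49.9% for the median gene. Results of the 8 genes that involve DW females were therefore recomputed without mice 82 and 83 and after a per-library GC correction, both added after seeing the data.

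In GRCm38 (GENCODE release 21 of the mouse annotation) all 8 genes are on the minus strand. C1qb (chr4:136880129-136886187), C1qc (chr4:136889804-136893065) and C1qa (chr4:136895917-136898803) stand side by side, with 3616 bases between C1qb and C1qc and 2851 between C1qc and C1qa. Cfb (chr17:34856374-34862518) ends 85 bases before C2 (chr17:34862604-34898265), and C4b (chr17:34728380-34743882) is 112491 bases from Cfb. C3 is at chr17:57203970-57228136 and Serping1 at chr2:84765387-84775444. Part of the reads of 3 of the genes cannot be assigned to them alone. Of the 50-base windows of the longest transcript, 35.2% of those of C4b also occur in C4a, and 58% of those of C2 and 81.4% of those of Cfb occur in Gm20547, an annotated transcript that runs through both genes. C4a and Gm20547 were not analysed here, and C4b, C2 and Cfb are uncertain to that extent; C3, Serping1 and the C1q genes shared no such window with another gene.

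RefSeq promoter windows (GRCm38.p6) matched 3 of the 8 genes. The 250 bases before the start sites of C3 (chr17:57228137-57228386, minus strand) and C1qb (chr4:136886201-136886450, minus strand) are shown for the most abundant of the 8 genes and for 1 of the C1q genes, which moved together, with matches to the searched motifs in capitals.
C3: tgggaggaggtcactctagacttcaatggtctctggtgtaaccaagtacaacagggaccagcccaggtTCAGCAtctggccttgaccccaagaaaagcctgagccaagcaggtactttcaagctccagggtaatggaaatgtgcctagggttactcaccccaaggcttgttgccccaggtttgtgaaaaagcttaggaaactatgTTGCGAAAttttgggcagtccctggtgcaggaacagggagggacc
C1qb: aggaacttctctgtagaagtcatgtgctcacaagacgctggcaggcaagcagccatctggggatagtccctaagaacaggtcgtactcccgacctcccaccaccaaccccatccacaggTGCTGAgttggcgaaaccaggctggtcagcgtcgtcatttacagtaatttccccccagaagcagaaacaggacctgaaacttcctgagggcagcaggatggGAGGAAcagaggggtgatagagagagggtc
In C1qb the capitals mark a MAF site (TGCTGA, bases -131 to -126) and the core bound by PU.1 (GAGGAA, bases -30 to -25), the lineage factor of macrophages. In C3 they mark a MAF site read on the other strand (bases -182 to -177) and a C/EBP motif (TTGCNNAA, bases -45 to -38), C/EBP proteins being regulators of adipocyte and acute-phase genes. Both strands were searched, and these motifs do not overlap each other here. Of 27025 promoter windows of the same length, 23.1% held GAGGAA, 15.8% TGCTGA and 9.55% TTGCNNAA. Neither of the windows shown held the searched interferon response element (3.04% of promoters) or NF-kB motif (4% of promoters), which says only that these letters are not in these bases.

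Per kilobase of exon, C3 was the most abundant of the 8 genes by far, at 305 normalised units per kb on average over the 24 libraries and rank 79 of 16095 genes. C1qa followed at 78.4 (rank 389), then C4b at 56.4, Serping1 at 50.9, C1qb at 44.6 and C1qc at 17.3. C2 (1.09, rank 11001) and Cfb (0.468, rank 12480) were low. Both were divided by the full exon length, of which 42.8% in C2 and 79.5% in Cfb is shared with Gm20547. How reads in those bases were counted is not given, so these levels and ranks are uncertain. In reads, Cfb had 46 to 336 in 23 libraries and 1 read in p21 male 53.

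The first comparison is of age under standard weaning, p28 SW against p21. Over both sexes 6 of the 8 genes rose: C1qa 2.38-fold, C1qc 2.37-fold, C1qb 2.28-fold, C4b 1.54-fold, C2 1.42-fold and C3 1.41-fold, all on the (value + 1) scale used throughout. Of all genes, 25.8% were called in this comparison and 14.8% were called higher. The median log2 change of the 8 genes was 0.56, against 0.02 over all genes tested. Calls are limma tests with a Benjamini-Hochberg adjusted p under 0.05, taken over all genes. In males 5 of the 8 rose (background 11.9% called, 6.9% higher) and in females 4 rose (11.6% called, 7.39% higher). The sex by age interaction was called for none of the 8 (lowest adjusted p 0.836) and for 1.03% of all genes. At an unadjusted p under 0.05 were 0 of the 8 and 1304 of all 16005 genes. The different counts by sex are therefore not a tested difference.

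The chains of C1q moved most. C1qa had normalised values of 41.5, 58.5, 38.1 and 49.1 in p21 males and 43.5, 38.5, 43.5 and 43.6 in p21 females. At p28 SW it had 95.5, 70.5, 78.3 and 148 in males and 100.8, 119, 126 and 142 in females. After DW it had 102, 112, 87.6 and 83.8 in males and 129.9, 135, 40.1 and 30.5 in females. Every SW mouse and every DW male was above every p21 mouse, while DW females split into 2 high and 2 low mice, the low ones being 82 and 83, at or below the p21 level. From p21 to SW the rise was 2.82-fold in females (log2 SE 0.33, adjusted p 0.00424), and the male log2 change was 1.01 (SE 0.33, adjusted p 0.0517, not called). That male change was called in 7 of 18 alternatives, among them edgeR with TMM scaling (1.06, adjusted p 0.0374), DESeq2 (1.07, adjusted p 0.00877) and GC-corrected values (0.82, adjusted p 0.00937).

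C1qb encodes the second chain. It had 29.4, 36.7, 19.4 and 28.1 in p21 males and 34.9, 25.0, 23.9 and 25.0 in p21 females. At p28 SW it had 56.5, 53.6, 50.5 and 74.4 in males and 61.8, 69.6, 72.1 and 74.6 in females. After DW it had 58.6, 59.2, 45.2 and 41.5 in males and 78.7, 75.7, 37.5 and 33.3 in females. Again all SW mice and all DW males exceeded all p21 mice. Its rise from p21 to SW was called in males (log2 1.04, SE 0.23, adjusted p 0.00581) and in females (1.34, SE 0.23, adjusted p 0.000449). C1qc, the third chain, had 18.2, 20.7, 18.4 and 19.1 in p21 males and 19.8, 14.7, 17.3 and 14.4 in p21 females. It had 35.04, 40.1, 30.3 and 54.6 in SW males and 39.2, 51.8, 48.0 and 54.3 in SW females. DW males had 41.3, 44.9, 34.9 and 29.0, and DW females 54.8, 54.0, 27.3 and 19.7. DW female 83 was the only p28 mouse within the p21 range of C1qc. After GC correction it was at 33.3, above the highest p21 value of 23.9. The rise of C1qc from p21 to SW was called in males (log2 1.00, SE 0.24, adjusted p 0.00993) and in females (1.49, SE 0.24, adjusted p 0.000218).

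**Figure D1:**
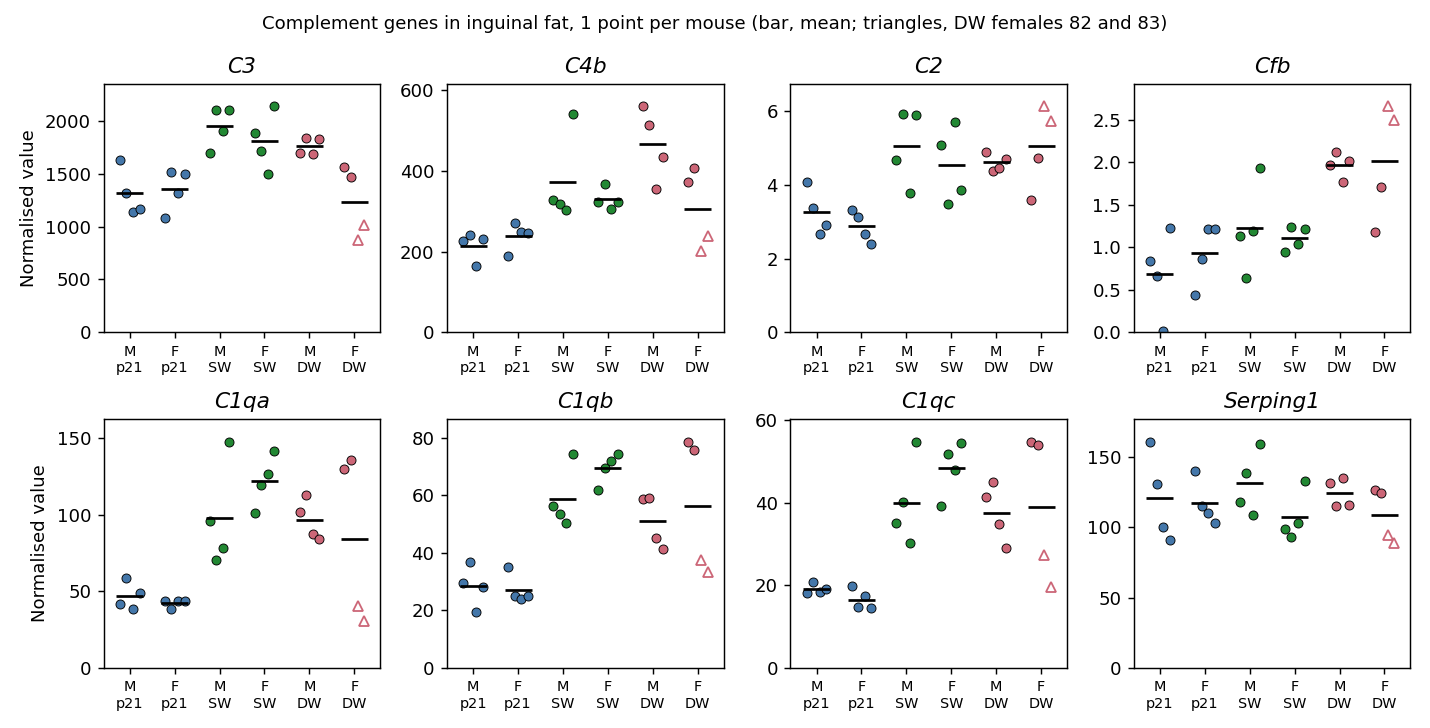
Normalised value (authors' unit, vertical axis, each from 0) of the 8 genes by group, with 1 point per mouse and a bar at the group mean (n = 4); open triangles are DW females 82 and 83. The C1q genes are low at p21 and higher in every SW mouse, and the triangles lie at 40.1 and 30.5 for C1qa while the other DW females lie at 129.9 and 135.

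Downstream of C1q, C4b and C2 encode the proteins that make the classical C3-cleaving enzyme. C4b had 225, 241, 163 and 231 in p21 males and 188, 272, 249 and 245 in p21 females. SW males had 328, 319, 304 and 541, and SW females 322, 367, 307 and 323. DW males had 560.3, 515, 357 and 434, and DW females 373, 406, 202 and 240.0. All SW mice and all DW males exceeded all p21 mice, and DW females 82 and 83 were within the p21 range. After GC correction DW female 83 was at 343, above the highest p21 value of 267. From p21 to SW the rise was called in males (log2 0.76, SE 0.21, adjusted p 0.0210) but not without SW male 124 or without p21 male 53 (adjusted p up to 0.0801), and the female change was 0.47 (SE 0.21, adjusted p 0.165). C2 had 4.08, 3.38, 2.67 and 2.91 in p21 males and 3.30, 3.13, 2.67 and 2.39 in p21 females. SW males had 4.67, 5.91, 3.78 and 5.90, and SW females 5.08, 3.48, 5.71 and 3.85. DW males had 4.89, 4.37, 4.46 and 4.71, and DW females 3.58, 4.72, 6.13 and 5.74. In females no p28 mouse overlapped the p21 mice, while SW male 85 lay below p21 male 37. Its rise from p21 to SW was 0.50 in each sex (SE 0.16, adjusted p 0.0422 in males and 0.0437 in females), and both calls were lost after GC correction (adjusted p 0.0761 and 0.0548). Leaving out 1 mouse ended the male call for p21 males 38, 53 and 54 and SW males 78, 84 and 124 (adjusted p up to 0.119) and the female call for p21 females 36, 55 and 56 and SW females 73 and 75 (up to 0.148).

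C3, the central protein of the cascade, was high in every mouse. It had 1633, 1319, 1139 and 1164 in p21 males and 1082, 1513, 1319 and 1498 in p21 females. SW males had 1697, 2099.6, 1900.1 and 2106, and SW females 1882, 1717, 1496 and 2138. DW males had 1693, 1836, 1689 and 1827, and DW females 1561, 1471, 874 and 1013. SW males were all above p21 males, SW females overlapped p21 females at their lowest value, and DW females 82 and 83 were the lowest of all 24 mice. After GC correction DW female 82 was at 992 and DW female 83 at 1276, the latter above p21 female 30 (1063) and p21 males 53 (1144) and 54 (1124). The rise from p21 to SW was called in males (log2 0.58, SE 0.18, adjusted p 0.0376) and over both sexes (0.50, SE 0.13, adjusted p 0.00590), and was 0.42 in females (SE 0.18, adjusted p 0.148). The male call was lost without any one of p21 males 38, 53 and 54 and SW males 84, 85 and 124 (adjusted p up to 0.0998), and the call over both sexes was kept without any one mouse (up to 0.0163).

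Cfb encodes factor B of the alternative pathway. It had 0.835, 0.667, 0.0154 and 1.22 in p21 males and 0.440, 0.865, 1.21 and 1.22 in p21 females. SW males had 1.14, 0.644, 1.19 and 1.93, and SW females 0.941, 1.24, 1.04 and 1.21. DW males had 1.97, 2.12, 1.77 and 2.01, and DW females 1.18, 1.70, 2.66 and 2.49. SW values overlapped p21 values in both sexes, DW males were all above p21 males, and the highest SW male (124) overlapped the DW males. The log2 change from p21 to SW was 0.28 over both sexes (SE 0.14, adjusted p 0.153).

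Serping1, the inhibitor, did not separate the groups. It had 161, 131, 100.3 and 91.2 in p21 males and 140.3, 115, 110.2 and 103 in p21 females. SW males had 118, 139, 109 and 159, and SW females 99.2, 93.1, 103 and 133. DW males had 132, 115, 135 and 116, and DW females 127, 125, 94.6 and 89.2. All groups overlapped, and the log2 change over both sexes was 0.00 from p21 to SW (95% interval -0.24 to 0.25) and -0.02 from p21 to DW (95% interval -0.26 to 0.22).

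The same span of age with prolonged nursing, p28 DW against p21, uses the same p21 mice, so the SW and DW age changes share their controls and are given side by side only. Over both sexes 6 of the 8 genes rose (22.8% of all genes called, 12.3% higher), and the median log2 change was 0.73 against 0.01 over all genes. C1qc rose by 1.00 on the log2 scale (SE 0.17, adjusted p 0.000246), C1qb by 0.89 (adjusted p 0.000513) and C1qa by 0.86 (adjusted p 0.0115), beside 1.24, 1.19 and 1.25 under SW. Cfb rose by 0.75 (SE 0.14, adjusted p 0.000723), C4b by 0.71 (adjusted p 0.00156) and C2 by 0.52 (adjusted p 0.00208), beside 0.28, 0.62 and 0.50. The size for Cfb depends on the pseudocount, since its values lie near the added 1: with a pseudocount of 0.1 its change was 1.44 over both sexes (adjusted p 0.00524) and 1.84 in males, and edgeR with TMM gave 1.31 over both sexes, so it cannot be ranked against the C1q genes. C3 was at 0.13 (SE 0.13, adjusted p 0.474), beside 0.50, and at 0.31 without DW females 82 and 83 (adjusted p 0.0505) and 0.20 after GC correction (adjusted p 0.209). In males 5 rose (15% called, 8.86% higher): C4b (1.11), C1qa (1.03), C1qc (0.92), Cfb (0.87) and C1qb (0.84). In females 4 rose (12.1% called, 5.95% higher): C1qc (1.07), C1qb (0.93), Cfb (0.63) and C2 (0.63). Over all genes the female calls were 952 higher and 986 lower, and 1628 and 925 after GC correction.

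Among the female calls, those for C2 and Cfb were lost without DW females 82 and 83, while C1qb and C1qc stayed called. Without these mice C4b (0.72, adjusted p 0.0394) and C1qa (1.63, adjusted p 0.000139) passed, C1qb became 1.49 and C1qc 1.67, and C2 (0.41, adjusted p 0.179) and Cfb (0.35, adjusted p 0.417) no longer passed. After GC correction, with all 24 mice, the female changes were 1.30 for C1qc, 1.16 for C1qb, 0.94 for C1qa (adjusted p 0.00353), 0.77 for Cfb (adjusted p 0.0225), 0.76 for C2 (adjusted p 0.00735) and 0.49 for C4b (adjusted p 0.0585). Over both sexes the same 6 genes were called with and without mice 82 and 83 and after GC correction, C1qa moving from 0.86 to 1.33 without them. P21 male 53 detected the fewest genes and its Cfb value rested on 1 read. Without it and SW male 84 the male DW change of Cfb was 0.65 (adjusted p 0.0216). The male call for C1qa was lost without any one of p21 males 37, 53 and 54 and the DW males (adjusted p up to 0.112), and that for C1qb without p21 male 53 or DW male 79 or 80 (up to 0.0804). The female call for Cfb was lost without any one p21 female or DW female 82 or 83 (up to 0.154), and that for C2 without DW female 82 or 83 (up to 0.0513). In all, the female call for Cfb was lost in 14 of 19 alternatives, among them edgeR (adjusted p 0.183 with TMM), DESeq2 (0.103), a pseudocount of 0.1 (0.182) and limma without a variance trend (0.0502). The male call for Cfb was lost under edgeR with either scaling (0.0679 with TMM).

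**Figure D2:**
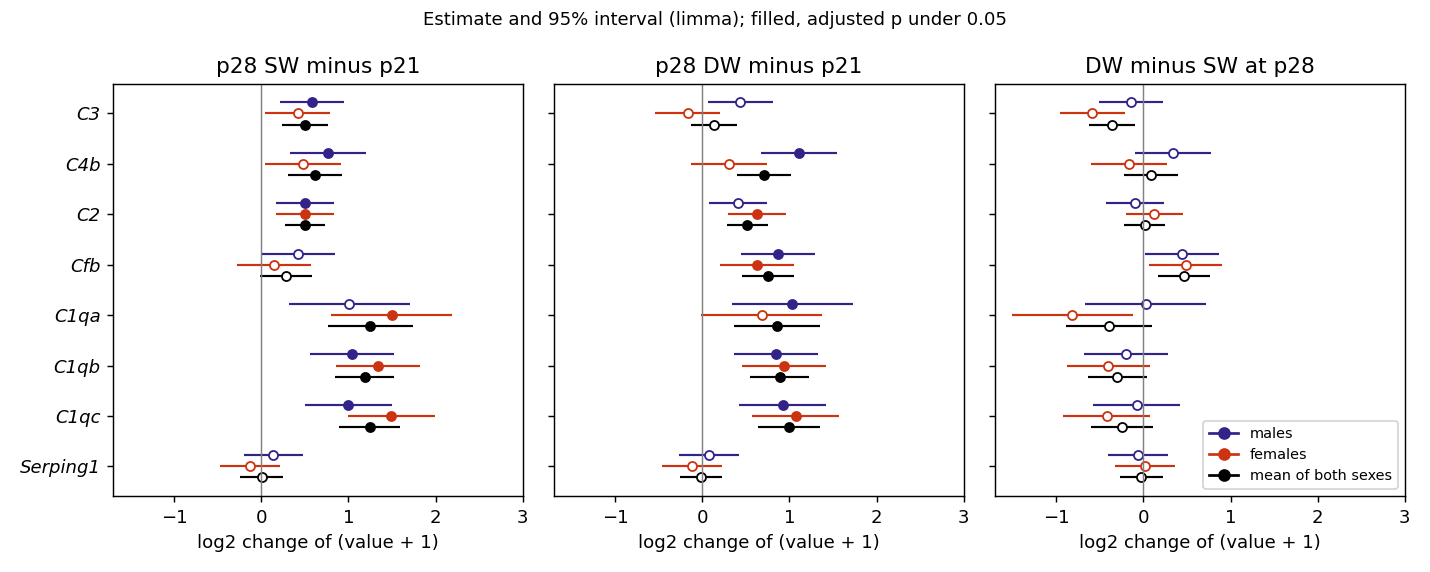
Log2 change of (value + 1) on the horizontal axis for the 8 genes in males, females and the mean of both sexes, with the limma estimate as a point and its 95% interval as a line; filled points have an adjusted p under 0.05. The C1q genes lie near 1 in both age comparisons, C3 is filled only from p21 to SW and Cfb only from p21 to DW, and no point is filled for DW minus SW.

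Delayed against standard weaning at the same age is the comparison the series is built on. None of the 8 genes was called in males, in females or over both sexes (limma), where 0.256%, 1.27% and 2.21% of all genes were called. At an unadjusted p under 0.05 were 1, 3 and 2 of the 8, beside 1110, 3019 and 2781 of all 16005 genes. The estimates nearest to the threshold were Cfb, higher in DW by 0.46 over both sexes (95% interval 0.17 to 0.76, adjusted p 0.0995), and C3, lower in DW females with a log2 change of -0.59 (95% interval -0.96 to -0.21, adjusted p 0.115). The Cfb estimate was alike in males (0.44) and females (0.48). C1qa in females was at -0.82 (95% interval -1.51 to -0.12, adjusted p 0.216). Without DW females 82 and 83 these female values were -0.24 for C3, 0.21 for Cfb and 0.13 for C1qa, each with an adjusted p of 0.999, so the sign for C1qa turned. After GC correction they were -0.46 for C3 (adjusted p 0.176), 0.60 for Cfb (adjusted p 0.187) and -0.44 for C1qa (adjusted p 0.258). Over both sexes C3 was at -0.36 (95% interval -0.63 to -0.10, limma p 0.00871, adjusted p 0.140). Over 29 alternatives this C3 estimate ranged from -0.43 to -0.19. The other intervals over both sexes were -0.22 to 0.40 for C4b, -0.22 to 0.25 for C2 and -0.27 to 0.22 for Serping1. For the C1q genes they were -0.89 to 0.09 for C1qa, -0.64 to 0.04 for C1qb and -0.60 to 0.10 for C1qc. The sex by weaning interaction was called for none of the 8 (lowest adjusted p 0.802) and for 0.0187% of all genes. At an unadjusted p under 0.05 were 0 of the 8 and 815 of all 16005 genes.

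Females and males did not differ by a called amount in any of the 8 genes at p21 (lowest adjusted p 0.771; 0 at an unadjusted p under 0.05; 0.356% of all genes called), at p28 SW (the same quantities being 0.715, 0 and 3.54%), at p28 DW (0.1004, 2 and 2.46%) or over the 3 states (0.360, 0 and 4.19%). Of all 16005 genes, 1376, 1466, 3158 and 2314 were at an unadjusted p under 0.05, in the same order. The 2 members at DW were C3 (-0.56, 95% interval -0.93 to -0.19) and C4b (-0.65, 95% interval -1.08 to -0.21), both lower in females. Without DW females 82 and 83 these were -0.22 for C3 (adjusted p 0.779) and -0.24 for C4b (adjusted p 0.804), and after GC correction -0.45 (adjusted p 0.118) and -0.49 (adjusted p 0.112). Mean C4b was 466 ± 90.0 (SD, n = 4) in DW males and 305 ± 99.3 in DW females, and mean C3 was 1761 ± 80.9 and 1229.7 ± 337. Among DW females, 76 and 77 had 1.61-fold more C3 than 82 and 83.

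In DW females the 2 high mice exceeded the 2 low ones by 3.76-fold in C1qa, 2.32-fold in C1qc, 2.18-fold in C1qb, 1.76-fold in C4b and 1.37-fold in Serping1, while C2 (0.700-fold) and Cfb (0.560-fold) went the other way. After GC correction these ratios were 2.05 for C1qa, 1.44 for C1qc, 1.37 for C1qb, 1.27 for C4b, 1.18 for Serping1 and 1.31 for C3, and 0.589 for C2 and 0.442 for Cfb. Of the 6 genes that were higher in mice 76 and 77, C1qa, with the highest GC content, had the largest ratio before and after correction, while after correction the Cfb difference in the opposite direction was larger. The part of GC in these differences beyond this correction was not tested. Of the macrophage markers, Cd68 was 92.0 and 80.8 in the high mice and 25.2 and 21.2 in the low ones, Csf1r 88.5 and 93.9 against 57.9 and 52.9, and Cd163 143 and 159 against 49.8 and 58.5. Adgre1 (19.6 and 24.3 against 24.5 and 27.4), Lyz2 (402 and 372 against 412 and 477) and Aif1 (8.93 and 8.31 against 11.3 and 12.4) were not lower in mice 82 and 83. Mrc1 overlapped (63.5 and 93.2 against 86.9 and 100.9). The other markers of the list are not given here by mouse.

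**Figure D3:**
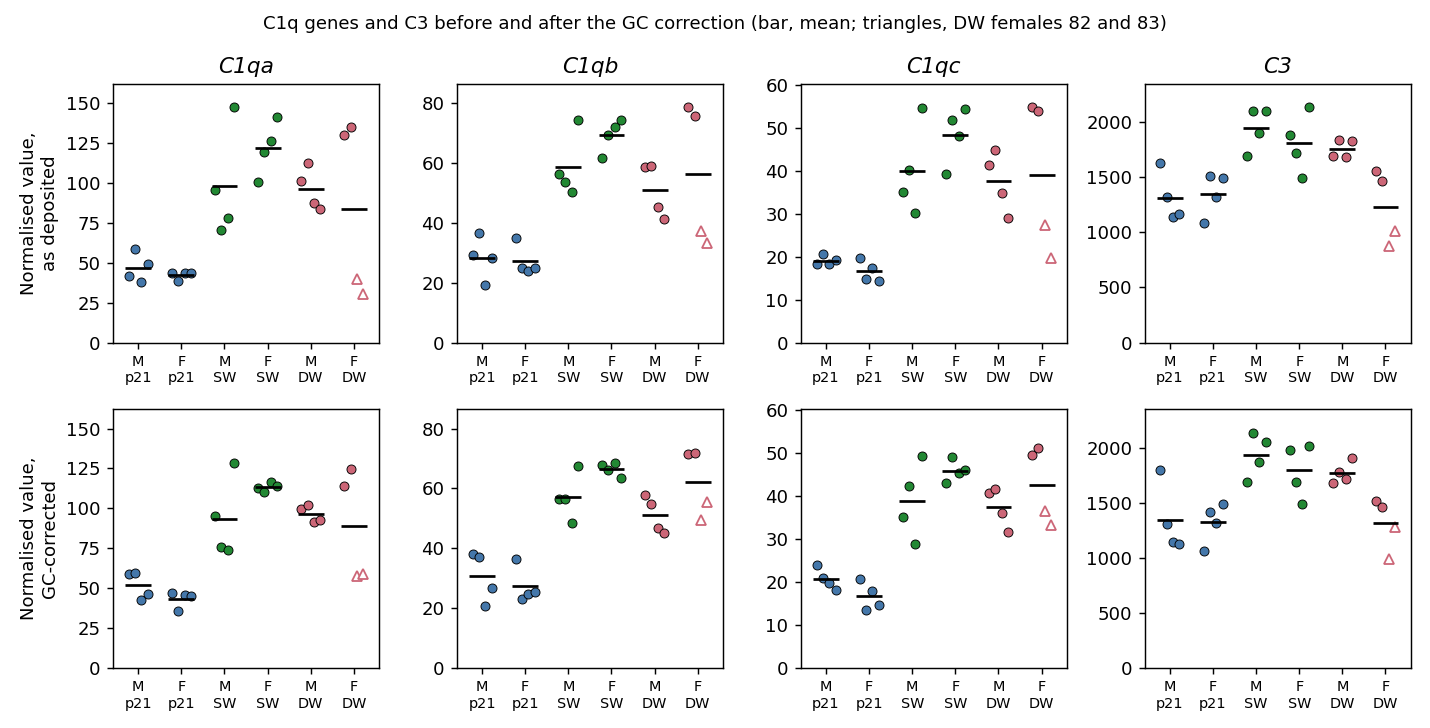
Normalised value (vertical axis, from 0) of the C1q genes and C3 by group, as deposited in the top row and after the per-library GC correction in the bottom row, with 1 point per mouse, a bar at the group mean (n = 4) and triangles for DW females 82 and 83. The mean of C1qa in these females moved to 58.1 after correction, against 119 in the other DW females, and the SW mice stayed above the p21 mice in all C1q panels.

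Macrophage markers rose over the same interval as the C1q genes. Of 12 markers, 10 rose from p21 to SW (median log2 change 0.95) and 10 rose from p21 to DW (median 1.01), among them Csf1r, the receptor that sustains macrophages (1.105 and 1.05), Adgre1 (1.13 and 1.29), Lyz2 (0.99 and 1.24) and Cd68 (1.31 and 1.11). Their summed level was 441 to 621 in p21 males and 404 to 485 in p21 females. Males reached 719 to 1033 after SW and 909.7 to 1003 after DW, and females 692 to 923 after SW and 816 to 1049 after DW. Every p28 mouse was above every p21 mouse, with no marker at 0. Its part in the rise of the C1q genes was not tested. All 4 erythroid markers fell in both comparisons.

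Among mice of the same group the C1q genes varied together. Over deviations from group means in the 24 mice, Pearson's r was 0.89 for C1qa with C1qb (Spearman's rho 0.88), 0.91 for C1qa with C1qc (rho 0.81) and 0.88 for C1qb with C1qc (rho 0.85). The permutation p-values of r, over 100000 permutations within groups, were 3e-05, 0.00016 and 1e-05, the last the smallest they can give, and 0.00042, 0.00149 and 0.00028 when adjusted over the 28 pairs. Those of rho were 5e-05, 0.00043 and 7e-05, and 0.00098, 0.00401 and 0.00098 when adjusted. Without the 2 mice farthest from the median r was 0.85, 0.84 and 0.82, without DW females 82 and 83 it was 0.76, 0.74 and 0.73, and after GC correction it was 0.75, 0.76 and 0.75. Of the 28 pairs, 8 had adjusted p-values under 0.05 for both coefficients. C3 with C4b gave r of 0.67 (rho 0.64; adjusted permutation p 0.0302 and 0.0306), 0.55 without the 2 farthest mice and 0.42 without DW females 82 and 83. C4b with C1qa gave 0.77 (rho 0.74; adjusted permutation p 0.0275 and 0.0208), 0.70 without the 2 farthest mice and 0.68 without those females. C4b with C1qb gave 0.72 (rho 0.70; adjusted permutation p 0.0302 and 0.0306), 0.66 without the 2 farthest mice and 0.53 without those females. After GC correction r was 0.59 for C3 with C4b, 0.62 for C4b with C1qa and 0.55 for C4b with C1qb. Serping1 gave 0.66 with C1qb (rho 0.67; adjusted permutation p 0.0302 and 0.0258) and 0.60 with C1qc (rho 0.60; adjusted permutation p 0.022 and 0.0306). These Serping1 values were 0.60 and 0.53 without the 2 farthest mice, 0.56 and 0.48 without those females, and 0.70 and 0.65 after GC correction.

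The 3 genes whose log2 values were most like each member over the 24 libraries were found among genes that are not members. For C1qa they were Cd68 (r = 0.95), Il3ra (0.95) and Gas6 (0.94), for C1qb Pltp (0.95), Fcer1g (0.95) and Csf1r (0.95), and for C1qc Pltp (0.96), Cd68 (0.95) and P2ry6 (0.94). For C2 they were Cd209a (0.88), Cd209d (0.85) and Ccr2 (0.85), for C3 Iqsec1 (0.89), Smarca2 (0.86) and Sbsn (0.86), and for C4b Dst (0.90), Ldlrad4 (0.89) and Wdfy3 (0.88). For Cfb they were Dclk2 (0.88), Cdkl1 (0.88) and Gm8797 (0.88), and for Serping1 Cadm3 (0.82), Ace (0.81) and Gfpt2 (0.80). These r values include the differences between groups, and are descriptions over libraries that share depth and GC effects. Over deviations from group means and after GC correction, r ranged from 0.49 (C2 with Ccr2) to 0.87 (C1qb with Fcer1g). On that scale it was 0.83 for C1qa with Cd68, 0.65 for C1qb with Pltp and 0.67 for C1qc with Cd68.

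Other genes of the cascade gave context for the 8. Their counts over both sexes stand beside 25.8% of all genes called and 14.8% called higher from p21 to SW, and 22.8% and 12.3% from p21 to DW. Of 11 tested initiators of the classical and lectin pathways, 4 rose from p21 to SW and 1 fell (median log2 change 0.14), and 3 rose and 1 fell from p21 to DW (median 0.12). Fcna, which encodes a ficolin of the lectin pathway, rose by 0.98 and 1.21, and Masp1, a protease of the same pathway, fell by 0.78 and 0.97. C1s1, a protease carried by C1q, rose by 0.30 from p21 to DW (adjusted p 0.0106). Of the other early components, Cfp (properdin) rose by 0.81 and 0.71, and Cfd (adipsin) rose by 1.14 from p21 to SW (adjusted p 0.00144) and was at 0.28 from p21 to DW (adjusted p 0.428). The latter depended on DW females 82 and 83: without them Cfd rose by 0.67 from p21 to DW (adjusted p 0.0114), and with them and GC correction it was at 0.35 (adjusted p 0.103). For DW minus SW, Cfd was at -0.65 in males (adjusted p 0.759) and -0.86 over both sexes (adjusted p 0.0636). The value over both sexes was -0.46 without those females (adjusted p 0.330) and -0.67 with them and GC correction (adjusted p 0.0190).

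Of 4 tested terminal components, C6 (1.43 and 0.99) and Hc, the gene of C5 (1.16 and 0.58), rose in both comparisons (list medians 0.77 and 0.57). Within a sex Hc was called in females and not in males: from p21 to SW it rose by 2.00 in females and was at 0.31 in males (adjusted p 0.176), with a called sex by age interaction (1.69, adjusted p 9.68e-05), and from p21 to DW it rose by 0.82 in females and was at 0.34 in males (adjusted p 0.122). With the deposited values and all mice, Hc was the only gene of the complement lists called between DW and SW over both sexes (-0.58, adjusted p 0.00287). After GC correction Cfd (-0.67, adjusted p 0.0190) and C6 (-0.47, adjusted p 0.0351) were called as well. C6 was at -0.44 (adjusted p 0.0565) before correction and at -0.37 (adjusted p 0.250) without DW females 82 and 83. Mean Hc was 5.13 ± 1.18 (SD, n = 4) in SW females and 1.70 ± 0.435 in DW females, and 0.571 and 0.600 in SW and DW males. These male means lie below the added 1, so male changes of Hc are compressed on the log2(value + 1) scale. The size of the male changes and of both sex interactions of Hc therefore depends on the pseudocount. Over all genes the sex by age interaction was called for 165 genes, and for 4 with edgeR and TMM. The sex by weaning interaction of Hc was called (-1.21, adjusted p 0.0410) but not without DW females 82 and 83 (-1.07, adjusted p 0.380) or after GC correction (-1.26, adjusted p 0.172), while the call over both sexes was kept without them (-0.50, adjusted p 0.0244) and after GC correction (-0.63, adjusted p 0.00211). The summed level of the mammary epithelial markers in females was 86.4 on average at p21, 311 after SW and 149 after DW, and its part in the Hc values was not tested. Of 12 regulators tested here, 2 rose and 2 fell in each age comparison (medians -0.00072 and 0.02; 1 rose to DW without females 82 and 83), a share near that of all genes: Cd55, which speeds the decay of C3-cleaving enzymes on cell surfaces, rose by 0.44 and 0.48, while Cpn2 fell by 1.29 and 0.91 and Susd4 by 0.38 and 0.47. Of 9 receptors, 5 rose to SW and 6 to DW (medians 0.39 and 0.38). C3ar1, the receptor of the C3 fragment C3a, rose by 1.16 and 1.11, C5ar1 by 0.90 and 0.71, and Itgam, a chain of a receptor for fragments of bound C3, by 0.75 and 0.83. Itgb2 (0.01 and 0.06), Itgax (0.22 and 0.13) and Cr2 (0.14 and 0.28), on the same list, were called in neither comparison.

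**Figure D4:**
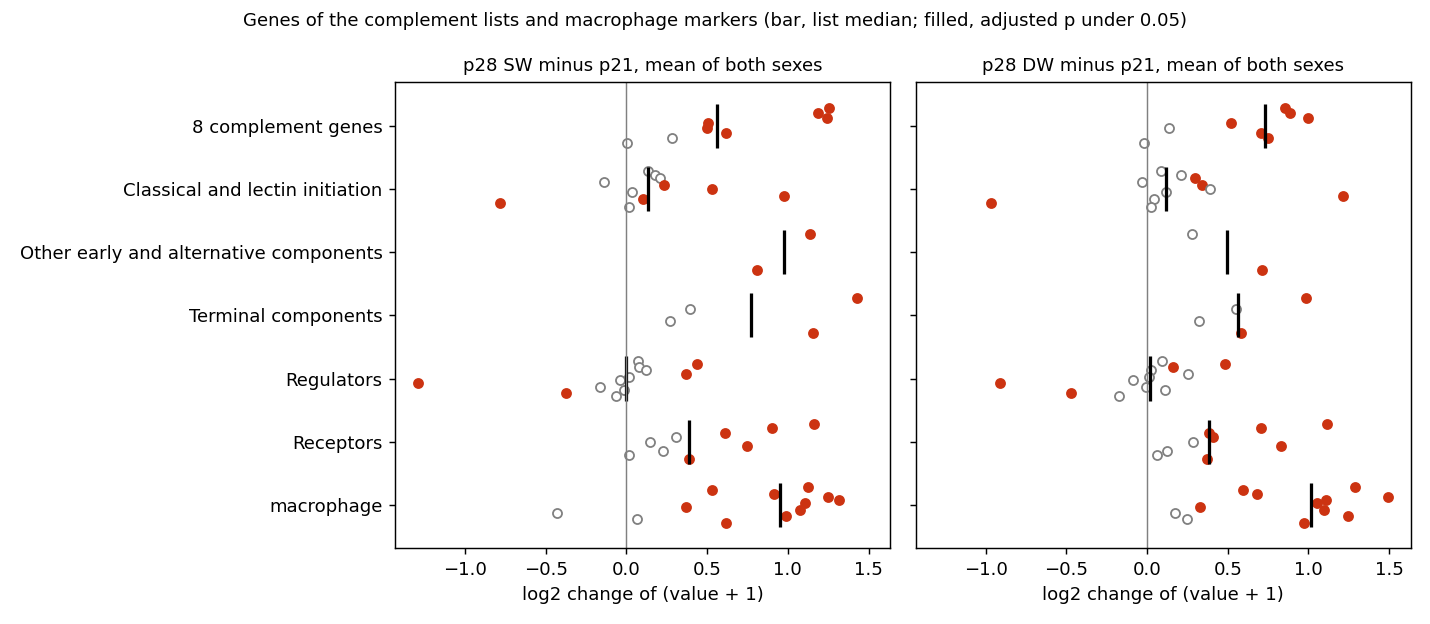
Log2 change of (value + 1) on the horizontal axis, mean of both sexes, for each tested gene of the complement lists and the macrophage markers, from p21 to SW and from p21 to DW; bars are list medians and filled points have an adjusted p under 0.05. Most macrophage markers lie to the right (10 of 12 filled in each panel), while the regulators centre on -0.00072 and 0.02.

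Genes that respond to interferon or NF-kB, a list of 18, included 9 that rose and 1 that fell from p21 to SW (median 0.29) and 9 that rose and 2 that fell from p21 to DW (median 0.15), led by Ifit3 (1.55 and 1.41). Other cell type lists moved less uniformly or apart from the C1q genes. All 6 skeletal muscle markers rose to SW over both sexes (median 4.59), while 0 were called to DW over both sexes (median 2.75). Within a sex, all 6 rose in males in both comparisons (medians 5.68 and 5.36) and 0 were called in females (3.35 and 0.19). Their summed level varied widely within groups, from 4.73 to 535 in p21 males, from 319 to 6614 in DW males and from 3.72 to 1907 in DW females. Of 7 mammary epithelial markers 4 rose to SW and 0 to DW over both sexes, and 4 and then 2 of 10 lymphocyte markers fell. Of the adipocyte markers 3 rose and 1 fell to SW and 2 rose to DW. Stromal markers rose in 2 and then 3 of 9, endothelial markers in 2 and then 1 of 5 (2 to DW without females 82 and 83 and 3 after GC correction), and hepatocyte markers in 1 and then 2 of 4 tested. These counts stand beside 14.8% of all genes called higher to SW and 12.3% to DW. The lists are short, and none was tested as a set. The part of these lists in the results for the 8 genes was not tested.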

How the data were processed

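Per the submitters' processing notes, fastp, HISAT2, featureCounts, DESeq2 1.38.3 and mm10 were used, with no role or order given. The authors deposited a normalised signal per gene and library, which is a read count divided by a factor of the library: 100% of values were whole multiples of 1 step (tolerance 0.001), so reads were recovered. The file holds 16208 rows for 16118 genes, 90 of them repeated rows. For each comparison the table of the authors holds a log2 fold change and a p-value, headed as adjusted per the file headers. These entered no test of the report and are quoted only under Other observations. Deposited gene positions did not match GRCm38 (2.15% of starts equal), so GENCODE positions are given.

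Genes passed filterByExpr on recovered reads (minimum count 10), which left 16005. All 24 libraries entered 1 limma fit on log2(value + 1) with 6 group coefficients, 18 residual degrees of freedom and a variance trend, and p-values were Benjamini-Hochberg adjusted over all genes. The script was tested on simulated data. The GC correction subtracted, per library, a loess curve (span 0.5) of deviations on transcript GC over 9935 genes with a mean log2 above 3; 99.9% of genes had a GC value. Alternatives were edgeR and DESeq2 on recovered reads, TMM scaling (0.965 to 1.03 of the deposited scaling), a pseudocount of 0.1, no filter, no variance trend, only the compared groups, the run of animal numbers as a covariate, and leaving out libraries. Age labels of p21 mice were followed over their titles. P-values measure the spread between mice, which are taken as independent. Litter entered no fit, so any sharing of litters within a group is not accounted for.

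The members and lists were chosen with earlier results of these data known. Named genes were the 8 members, a selection of genes of the pathway lists, marker genes beside a result they move with, and for each member the 3 non-member genes with the highest r (mean log2 of at least 1). Other called genes of the pathway lists are counted but not named. List genes not analysed here were Mbl1, Mbl2, C4a, C8a, C8b, C4bp, Cpn1 and Ttr, and some further regulators are not reported here. Tools were R 4.3.3, limma 3.58.1, edgeR 4.0.16, DESeq2 1.42.0, Python 3.11.15, numpy 2.4.6, pandas 2.3.3 and scipy 1.17.1.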

Additional observations from a re-analysis of the deposited data

Results flagged for a closer look

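In 4 of 48 groups tested (8 genes in 6 groups), 1 mouse stood apart from the other 3 of its group by more than the 95% limit of Dixon's gap ratio; chance flags about 1 in 20 groups, or 2.4 here. C4b was 163 in p21 male 53, below the other p21 males, and 541 in SW male 124, above the other SW males. C1qa was 38.5 in p21 female 36, where the other 3 lay between 43.5 and 43.6, so the gap is small in absolute terms. C1qb was 34.9 in p21 female 30, above the other p21 females.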

How the results depend on the processing

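No paired analysis was possible because animal numbers are not shared between groups. Over both sexes the 6 genes called from p21 to SW and the 6 from p21 to DW kept their call and sign in all 26 and 28 alternatives, but many calls within a sex did not; causes were not tested. From p21 to SW in males 5 genes were called, 1 without p21 male 53 and SW male 84, and 2 to 5 when 1 library was left out. From p21 to DW in males 5 were called, 3 without those libraries, and 3 to 5 with 1 left out. From p21 to DW in females 4 were called, 0 with only the compared groups fitted, and 2 to 4 with 1 left out. For DW against SW 0 were called, and in females 0 to 2 with 1 library left out (C3 and C1qa without DW female 76 or 77). Over both sexes the count was 1 (Cfb) with only the compared groups or with the run of animal numbers as a covariate, and 0 to 2 with 1 library left out. Females against males after DW gave 0, 1 with DESeq2 (C3), 1 with the covariate (C4b), and 0 to 2 with 1 left out. Over all genes, calls for DW against SW were 41 in males (10 to 134 over alternatives), 204 in females (0 to 1996) and 353 over both (191 to 1098). They were 1901 from p21 to SW in males (922 to 2562), 2395 and 1938 from p21 to DW in males and females (1229 to 3077 and 486 to 3123), 57 and 394 between sexes at p21 and DW (4 to 115 and 251 to 1822), 3 for sex by weaning (0 to 8) and 165 for sex by age (4 to 199). DW against SW in females split into 74 higher and 130 lower, 63 and 8 with edgeR and TMM, 51 and 10 with DESeq2 size factors, and 78 and 73 after GC correction; over both sexes it split into 191 and 162, and 197 and 102 with edgeR and TMM. Females against males at p21 split into 53 and 4, and 11 and 4 with edgeR. Cfb had 1 read in p21 male 53 and 46 to 336 in the other libraries, and whether depth limits its tests was not examined.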

Other observations

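In the authors' deposited table, the p-value columns are headed as adjusted but follow unadjusted values. For DW against SW in males, 1179 of 15374 genes were under 0.05 in the authors' deposited table, beside 1210 by the unadjusted and 111 by the adjusted p of DESeq2 on the recovered reads, and in females 2597 of 14138, beside 2756 and 295. Over the 9 comparisons, 28.8% (p21 to DW in females) to 71.6% (DW against SW in males) of the deposited values were within 10% of the unadjusted p, with 47.8% for DW against SW in females, and 9.08% to 10.5% within 10% of the adjusted one. For C3 in DW against SW females the authors' deposited table gives a log2 change of -0.56 and a p of 0.00139, which is therefore read here as unadjusted; the limma p in this comparison was 0.00347 before adjustment and 0.115 after it.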
